A study of Mus musculus with 6 samples.

Results

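The genes described here are 35 genes of glycolysis and of the response to low oxygen, measured in kidneys of E14.5 mouse embryos. They were chosen by name with earlier results of these data known, so their shares beside those of all genes only describe them. A gene was measured where a row of the array carried its symbol and no other. On that rule 33 of the 35 were measured, out of 19938 genes in all, and Gpi1 and Eno1 were not analysed here. The 3 pools labelled Foxd1 null (null-labelled pools below) came from Foxd1-/- embryos and the 3 wild type pools from their wild type littermates. Parents were Foxd1 heterozygotes, 3 litters were used, and every pool held 2 pairs of kidneys from different litters. Embryo sex was not determined, and any 2 pools share at least 1 litter because each drew on 2 of only 3. Foxd1 encodes a forkhead transcription factor of the stromal progenitors of the kidney, and the comparison asks which transcripts differ when it is lost.

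Glycolysis turns glucose into pyruvate in the cytosol, and lactate dehydrogenase turns pyruvate into lactate when it is not burned in mitochondria. When oxygen is low, the prolyl hydroxylases of the Egln family stop marking the alpha subunits Hif1a and Epas1, the ubiquitin ligase subunit Vhl no longer has them destroyed, and they switch on target genes. Many glycolytic genes are such targets, beside genes of blood vessel growth, of mitochondrial turnover and of collagen modification. In embryonic kidney, Hif1a is known from the developing tubules and Epas1 from the stroma and endothelium.

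All values are the deposited log2 levels, 1 per gene and pool. A difference is the null-labelled mean less the wild type mean, given with its standard error (SE) from limma, a linear model fitted to all 19938 genes. Adjusted p-values are by the Benjamini-Hochberg method over all of these genes, and an adjusted p under 0.05 is the threshold. Levels of different genes on an array cannot be set against each other, so only differences between pools are compared. In whole kidneys, fewer cells of a type and less RNA per cell cannot be told apart.

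The Foxd1 row itself read 10.05, 9.77 and 9.71 in the null-labelled pools against 9.40, 9.55 and 9.69 in the wild type pools. Every null-labelled pool was above every wild type pool (difference 0.30, SE 0.11, adjusted p = 0.246). The labels do not name the part of the gene that the allele lacks, and a row outside that part checks nothing. All 8 genes of a list for kidney identity and nephron progenitors had a row, and their summed linear level was 4954 to 5705 in the null-labelled pools and 5702 to 5931 in the wild type pools. Of the 8, 2 fell, Cited1 (difference -0.53, adjusted p = 0.046) and Wt1 (difference -0.34, adjusted p = 0.0444), where 0.767% of all genes were called lower. Without overlap 5 were lower, where 8.04% of all genes were. Another 1 was higher without overlap, Eya1 (difference 0.25, named after its values were seen). Per array, the median log2 value ranged from 6.984 to 7.057. The number of arrays limits the precision.

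Most of the glycolysis and hypoxia genes did not pass the test between the genotypes. Of the 33, 1 rose (P4ha1), 1 fell (Ldhb) and 31 did not pass the threshold, which is 6.06% called where 2.40% of all genes were (1.64% higher and 0.767% lower). At an unadjusted p under 0.05 there were 7, of which 6 were higher and 1 lower, where 14.1% of all genes reached it (8.68% higher and 5.42% lower). The median difference was 0.10 over the 33 genes and 0.01 over all genes. A difference above 0 was seen in 26 of the 33 (78.8%) and in 54.5% of all genes. The 18 measured genes of glycolysis (transporters, enzymes, lactate dehydrogenases and regulatory kinases) and the 12 other hypoxia targets had close medians: 0.104 for the glycolysis genes and 0.102 for the other targets, with 15 of 18 and 9 of 12 above 0. The 11 measured glycolytic enzymes taken alone had a lower median of 0.045, with 9 of 11 above 0. Without null-labelled pool 1 the medians were 0.053 for the glycolysis genes and 0.0584 for the other targets. Without null-labelled pool 2 they were 0.171 for the glycolysis genes and 0.118 for the other targets. The pools of the 2 genotypes did not overlap in 7 of the 33 genes (21.2%), 5 higher and 2 lower in the null-labelled pools, where 19.5% of all genes had groups that did not overlap (11.5% higher and 8.04% lower).

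**Figure D1:**
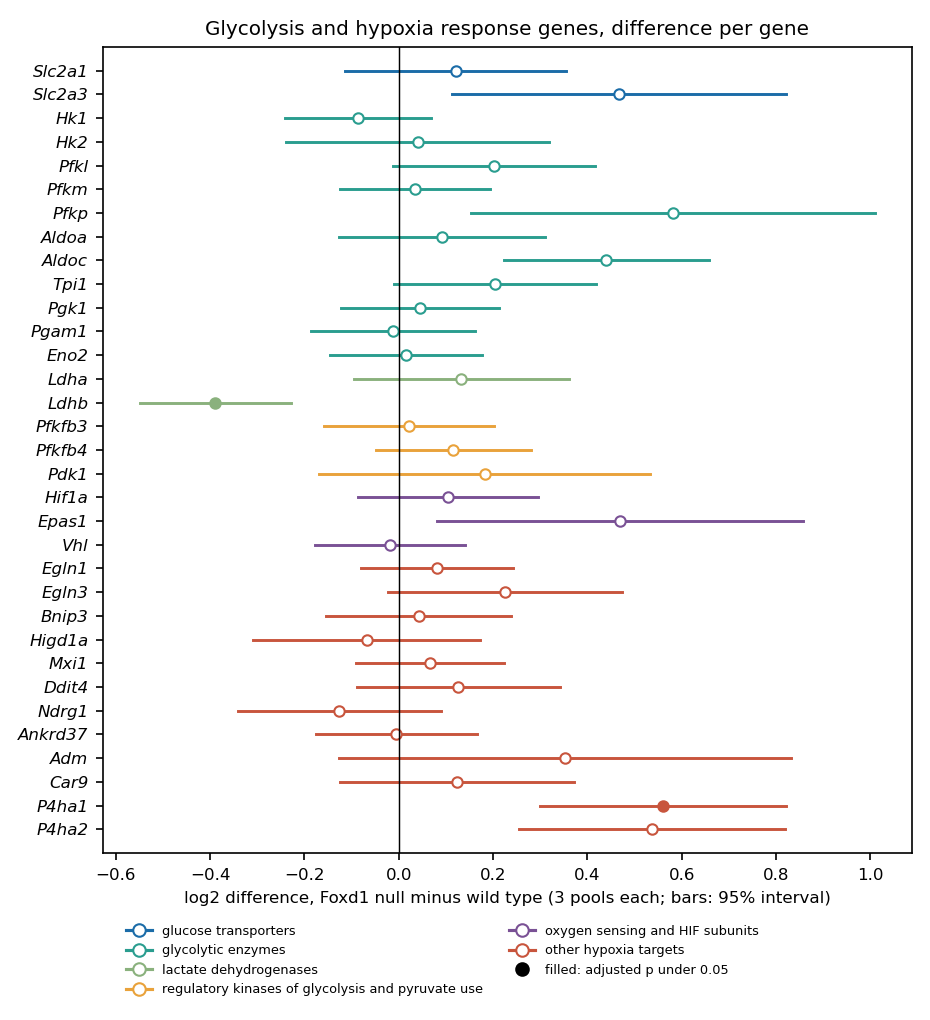
Difference between the 3 null-labelled and the 3 wild type pools for each of the 33 genes (log2 units, horizontal axis), with the 95% interval as a bar and the functional group as the colour. Filled points passed the threshold: P4ha1 lies to the right of 0 and Ldhb to the left, and most other intervals cross 0.

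**Figure D2:**
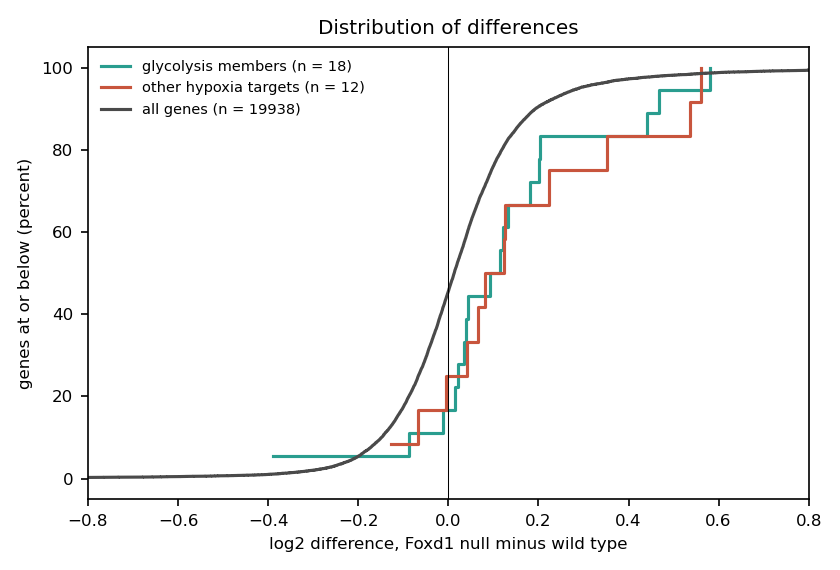
Cumulative share of genes (percent, vertical axis) at or below each log2 difference, for the 18 glycolysis genes, the 12 other hypoxia targets and all 19938 genes; the horizontal axis is limited to 0.8 on either side. Around the middle both short curves lie to the right of that of all genes (median 0.01), with medians of 0.104 for the glycolysis genes and 0.102 for the other targets.

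P4ha1 was the gene that rose. It encodes an alpha subunit of the collagen prolyl hydroxylase, which hydroxylates prolines of procollagen in the endoplasmic reticulum so that the triple helix is stable, and it is a known HIF target. P4ha1 stood at 9.85, 9.36 and 9.68 in null-labelled pools 1, 2 and 3, against 9.06, 9.14 and 9.002 in wild type pools 1, 2 and 3. Every null-labelled pool was above every wild type pool, with pool 2 the closest. The difference was 0.56 (SE 0.12, 1.47-fold, n = 3 pools each, adjusted p = 0.0389). P4ha2 encodes the other measured alpha subunit of the same enzyme. Its levels were 8.20, 7.99 and 8.43 in the null-labelled pools and 7.46, 7.79 and 7.75 in the wild type pools, again without overlap. Its difference of 0.54 (SE 0.13, 1.45-fold, 95% interval 0.26 to 0.82) was near that of P4ha1 but missed the threshold (adjusted p = 0.0638). The log2 ratio of P4ha2 to P4ha1 within an array averaged -1.42 ± 0.20 in null-labelled pools and -1.40 ± 0.18 in wild type pools (SD, n = 3 each; exact permutation p = 0.8, two-sided). Fits that leave out a pool have fewer pools to test with. P4ha1 passed in 1 of the 6 such fits, the one without null-labelled pool 2. Over the 6 its adjusted p by limma ran from 0.0165 to 0.145 and its difference from 0.45 to 0.70. Tested among all rows of the array it had an adjusted p of 0.187 with limma, and with a plain two-sample test per gene 0.343. That plain test called only 2 of all 19938 genes, so a miss by it says little about a gene.

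The promoters of P4ha1 and P4ha2 are shown because these 2 genes differed by a like amount, and those of Ldhb and Ldha because Ldhb fell while its sister gene Ldha did not pass. Each is 250 bases before to 50 bases after the start site that RefSeq gives on GRCm38.p6, read 5′ to 3′ along the gene. Capitals mark ACGTG and GCGTG, the spellings of the core of the hypoxia response element, and their reverse complements CACGT and CACGC; a palindrome CACGTG counts on both strands. The windows are chr10:59323046-59323345 (plus strand) for P4ha1, chr11:54100674-54100973 (plus strand) for P4ha2, chr6:142507908-142508207 (minus strand) for Ldhb and chr7:46845554-46845853 (plus strand) for Ldha.
P4ha1: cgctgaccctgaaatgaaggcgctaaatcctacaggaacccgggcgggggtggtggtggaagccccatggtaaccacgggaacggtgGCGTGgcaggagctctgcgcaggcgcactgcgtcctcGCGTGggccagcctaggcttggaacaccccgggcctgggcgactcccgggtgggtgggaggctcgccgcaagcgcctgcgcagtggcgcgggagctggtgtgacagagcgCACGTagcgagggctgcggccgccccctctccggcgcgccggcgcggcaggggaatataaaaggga
P4ha2: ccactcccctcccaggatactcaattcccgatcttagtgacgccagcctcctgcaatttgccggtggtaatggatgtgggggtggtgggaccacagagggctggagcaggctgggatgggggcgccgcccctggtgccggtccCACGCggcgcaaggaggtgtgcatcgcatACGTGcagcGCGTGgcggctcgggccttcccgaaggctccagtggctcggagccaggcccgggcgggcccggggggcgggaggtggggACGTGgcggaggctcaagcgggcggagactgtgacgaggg
Ldhb: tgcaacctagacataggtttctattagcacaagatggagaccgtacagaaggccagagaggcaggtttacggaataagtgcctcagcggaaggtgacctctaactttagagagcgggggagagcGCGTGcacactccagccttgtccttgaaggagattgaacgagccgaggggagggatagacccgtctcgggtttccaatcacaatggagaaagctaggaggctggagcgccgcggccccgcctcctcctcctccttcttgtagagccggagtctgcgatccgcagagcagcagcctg
Ldha: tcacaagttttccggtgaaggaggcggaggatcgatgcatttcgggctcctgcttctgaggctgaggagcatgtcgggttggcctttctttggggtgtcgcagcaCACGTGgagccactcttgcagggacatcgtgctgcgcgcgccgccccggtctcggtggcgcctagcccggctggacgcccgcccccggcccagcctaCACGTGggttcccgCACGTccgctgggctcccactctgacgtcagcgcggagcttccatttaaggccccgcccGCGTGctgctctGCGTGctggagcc
P4ha1 held 3 matches, the nearest beginning 16 bases before the start site, and P4ha2 held 4, one of which begins 10 bases after it. Ldhb held 1 match, 126 bases before the start site, while this window of Ldha held 7, 2 of its palindromes counting on both strands. A match was found in 27 of the 30 measured genes that the promoter table lists, among them 15 of 17 glycolysis genes and 11 of 11 other hypoxia targets. Among all genes listed, 46.7% had one, and among the protein-coding ones 52.3%. The motif holds a CpG, and the windows of the measured genes had a median GC content of 62.8% against 56.3% for protein-coding genes, whose part in this was not tested.

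Beyond the 33 genes, a second list holds other genes of the hypoxia response and of oxygen sensing, also chosen with earlier results of these data known. Of its 51 measured genes, 5 rose and 46 did not pass (9.80% called, where 1.64% of all genes were called higher), with a list median of 0.06. Those that rose were Lox, Pam, Tmem45a, Plod1 and Plod2, the last named after its values were seen. Lox, Plod1 and Plod2 act on collagen, as P4ha1 and P4ha2 do, a grouping made after the calls were seen. Lox, which oxidises lysines of collagen and elastin for crosslinking, read 8.66, 8.83 and 8.83 in the null-labelled pools and 7.49, 7.52 and 7.67 in the wild type pools. That is a difference of 1.22 (SE 0.08, 2.32-fold, adjusted p = 0.000317), and Lox passed in all 6 fits that leave out a pool. The lysyl hydroxylase Plod1 stood at 8.15, 8.24 and 8.35 in the null-labelled pools and at 7.77, 7.76 and 7.84 in the wild type pools (difference 0.45, SE 0.08, adjusted p = 0.017). Plod2, another lysyl hydroxylase, gave 10.27, 10.20 and 10.39 in the null-labelled pools and 9.90, 9.87 and 9.84 in the wild type pools (difference 0.42, SE 0.08, adjusted p = 0.0219). All 3 genes had groups that did not overlap, but Plod1 and Plod2 each passed in only 2 of the 6 fits without a pool, with adjusted p up to 0.0969. P4hb, the beta subunit shared by both prolyl hydroxylases (chosen after its values were seen), differed by 0.14 (95% interval -0.03 to 0.32). Among all rows of the array Lox still passed (adjusted p = 0.0189) and the other 4 did not, and with the plain test none of the 5 passed (Lox 0.114). In the authors' deposited table, which holds 488 probe sets, Lox has a fold of 2.39 with p = 0.00112.

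Vegfa, the endothelial growth factor that is among the best known HIF targets, stood at 8.58, 8.53 and 8.45 in the null-labelled pools and 8.49, 8.56 and 8.75 in the wild type pools. The groups overlapped and the difference was -0.08 (95% interval -0.27 to 0.12). Bnip3l, a relative of Bnip3 that also acts in the removal of mitochondria, differed by 0.06 (95% interval -0.15 to 0.26). Tmem45a, a transmembrane protein gene, read 8.52, 8.41 and 8.46 in the null-labelled pools and 7.92, 8.15 and 7.88 in the wild type pools. It rose by 0.48 (SE 0.09, adjusted p = 0.0215), with 2 of 6 fits without a pool past the threshold.

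**Figure D3:**
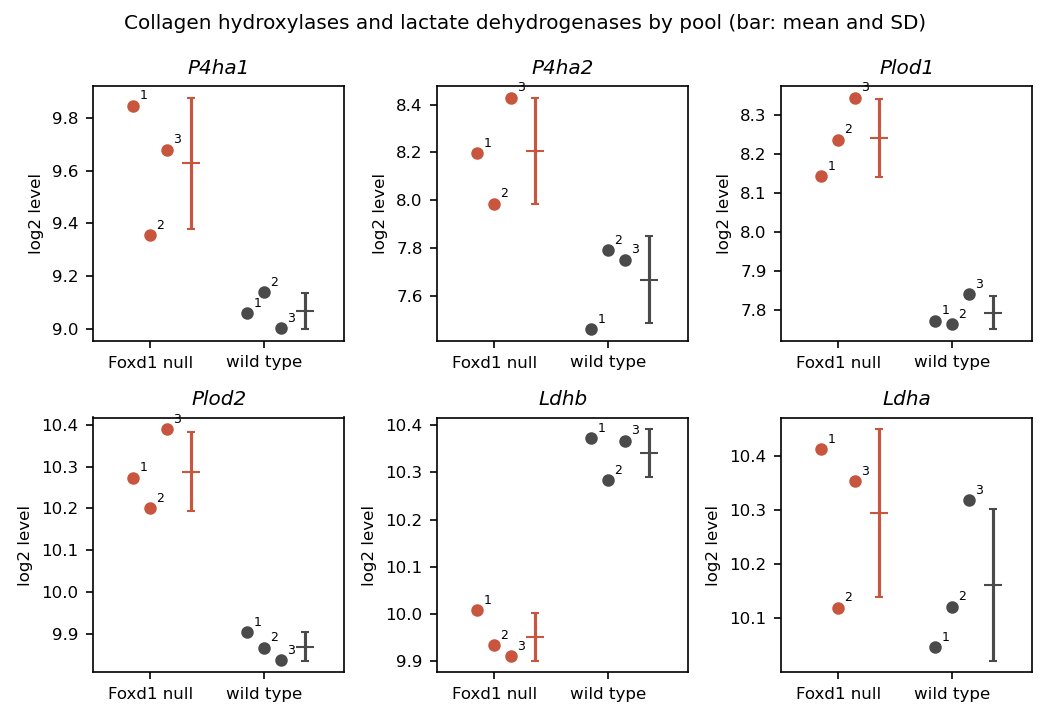
Log2 level (vertical axis, own scale in each panel) of 4 collagen hydroxylase genes and the 2 lactate dehydrogenase genes in each pool, null-labelled pools left and wild type pools right, with the pool number beside each point and the mean and SD as a bar. The groups do not overlap for P4ha1, P4ha2, Plod1, Plod2 and Ldhb, and overlap for Ldha.

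The genes that carry glucose to pyruvate did not pass in either direction. Slc2a1, the glucose transporter found on most embryonic cells, stood at 8.86, 8.59 and 8.77 in the null-labelled pools and 8.56, 8.49 and 8.81 in the wild type pools (difference 0.12, 95% interval -0.11 to 0.35). Of the 11 measured glycolytic enzymes none passed by limma, while 2 had an unadjusted p under 0.05 (Pfkp and Aldoc), where 14.1% of all genes had one. None passed by a plain two-sample test per gene either, but that test called only 2 of all 19938 genes. Pgk1, phosphoglycerate kinase, which makes the first ATP of the pathway, read 12.25, 12.10 and 12.25 in the null-labelled pools and 12.13, 12.16 and 12.18 in the wild type pools. Its groups overlapped, and the 95% interval of the difference was -0.12 to 0.21.

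Hexokinases trap glucose in the cell. The row used for Hk1 read 12.17, 12.10 and 12.10 in the null-labelled pools and 12.18, 12.21 and 12.24 in the wild type pools, without overlap but with a difference of only -0.09 (SE 0.07). Which transcript this row reads is uncertain, since 16 further rows carry Hk1 together with other symbols and all 16 also carry the ribosomal protein gene Rpl17. The other Hk1 row pointed the other way, with 7.79, 7.68 and 7.93 in the null-labelled pools and 7.76, 7.76 and 7.61 in the wild type pools. Hk2, the isoform that HIF is known to raise, differed by 0.04 (95% interval -0.24 to 0.32).

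Phosphofructokinase catalyses the committed step of the pathway from 3 genes. The liver-type gene Pfkl differed by 0.20 (SE 0.10) and the muscle-type gene Pfkm by 0.03 (SE 0.07), both with overlapping groups. Pfkl was the only member of the 33 in the authors' deposited table, with a fold of 1.06 and p = 0.662. The platelet-type gene Pfkp is described below with other genes that separated the null-labelled pools from each other.

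Aldolase splits the phosphorylated sugar. Aldoc, the isoform best known from brain, stood at 6.84, 6.93 and 7.04 in the null-labelled pools and at 6.38, 6.68 and 6.42 in the wild type pools. Its groups did not overlap, and its difference of 0.44 (SE 0.10, 1.36-fold) lay just outside the threshold with adjusted p = 0.0501 (0.0282 to 0.324 over the other settings). The widespread isoform Aldoa differed by 0.09 (SE 0.10). Within each array, the log2 ratio of Aldoc to Aldoa averaged -3.66 ± 0.11 in null-labelled pools and -4.01 ± 0.22 in wild type pools (SD, n = 3 each), without overlap. The exact permutation p was 0.1, the smallest that 3 pools against 3 allow, or 0.35 adjusted over the 7 isozyme pairs compared. Tpi1, triosephosphate isomerase, differed by 0.20 (SE 0.10), Pgam1, phosphoglycerate mutase, by -0.01 (SE 0.08) and Eno2, the neuronal enolase, by 0.02 (SE 0.07). The signs of Pgam1 and Eno2 turned under some settings, as did those of Hk1, Hk2 and Pfkm, with turned values no larger than 0.0711. Pkm, the pyruvate kinase that closes the pathway, was outside the 33 genes and differed by 0.12 (95% interval -0.09 to 0.34).

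Of the lactate dehydrogenase genes, Ldhb fell and Ldha did not pass. Ldhb encodes the heart-type subunit, typical of tissues that oxidise lactate, and fell to 10.01, 9.94 and 9.91 in the null-labelled pools, against 10.37, 10.28 and 10.37 in the wild type pools. No null-labelled pool reached the lowest wild type pool, and the difference was -0.39 (SE 0.07, 0.763-fold, adjusted p = 0.0229). The other Ldhb row read 8.42, 8.43 and 8.35 in the null-labelled pools and 9.004, 8.76 and 8.93 in the wild type pools, a difference of -0.49. Ldha encodes the muscle-type subunit, a HIF target that favours lactate formation. It stood at 10.41, 10.12 and 10.35 in the null-labelled pools and 10.05, 10.12 and 10.32 in the wild type pools, with overlap (difference 0.13, SE 0.10, adjusted p = 0.637). The log2 ratio of Ldhb to Ldha was -0.40, -0.18 and -0.44 in the null-labelled pools and 0.33, 0.16 and 0.05 in the wild type pools. The groups did not overlap, with a difference of -0.52; since the rows differ in brightness, only this difference can be read, not the ratio itself (exact permutation p = 0.1, the smallest possible, and 0.35 adjusted over 7 pairs).

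Ldhb passed without null-labelled pool 1 (adjusted p = 0.0211 by limma) and in no other of the 6 fits that leave out a pool (up to 0.12). Its difference stayed at -0.42 to -0.37 over these fits, which have fewer pools to test with. Among all rows of the array its adjusted p was 0.0955 with limma, and with the plain test 0.158. Markers of the proximal tubule were also lower in the null-labelled pools. Of 9 measured markers 6 fell, where 0.767% of all genes were called lower, and 2 had a difference above 0. Among those that fell were the endocytic receptor Lrp2 (difference -1.59, SE 0.20) and Keg1 (difference -2.19, SE 0.22). The summed linear level of that list was 862 to 932 in the null-labelled pools. In wild type pools 1, 2 and 3 it was 1970, 1879 and 1339. The part of the proximal tubule in the Ldhb value was not tested.

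Of the 3 kinases that steer glycolysis and pyruvate use, 0 passed by limma, 0 by the plain test and 0 at an unadjusted p under 0.05. Pdk1, which blocks the entry of pyruvate into mitochondria and is a HIF target, read 7.95, 7.47 and 7.62 in the null-labelled pools and 7.82, 7.43 and 7.25 in the wild type pools. Pool 1 was the highest in each genotype, and the difference of 0.18 was close to its SE of 0.16. Pfkfb4 and Pfkfb3 make the allosteric activator of phosphofructokinase. Pfkfb4 stood at 5.77, 5.92 and 5.79 in the null-labelled pools and 5.73, 5.71 and 5.69 in the wild type pools, without overlap but with a difference of only 0.12 (SE 0.07). For Pfkfb3 the difference was 0.02 (SE 0.08), with the sign turning under some settings.

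In a list of 40 other measured genes of glucose use, 1 rose and 39 did not pass, and the median was 0.0037. That is 2.5% called, near the 2.40% of all genes. Slc16a3, the monocarboxylate transporter that exports lactate and a known HIF target, was the one that rose. It stood at 7.87, 7.85 and 7.92 in the null-labelled pools, above 7.49, 7.50 and 7.61 in the wild type pools (difference 0.35, SE 0.07, adjusted p = 0.0385). It did not pass in any of the 6 fits that leave out a pool (adjusted p 0.0535 to 0.18), nor among all rows of the array (0.131) or with the plain test (0.167). For 26 measured nuclear subunits of oxidative phosphorylation, limma and the plain test per gene each called 0, and the list median was -0.08. By limma 8 had an unadjusted p under 0.05, all lower, where 5.42% of all genes were lower at that p. A difference above 0 was seen in 2 of the 26 (7.69%) and in 54.5% of all genes. Without overlap 11 were lower (42.3%), where 8.04% of all genes were.

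**Figure D4:**
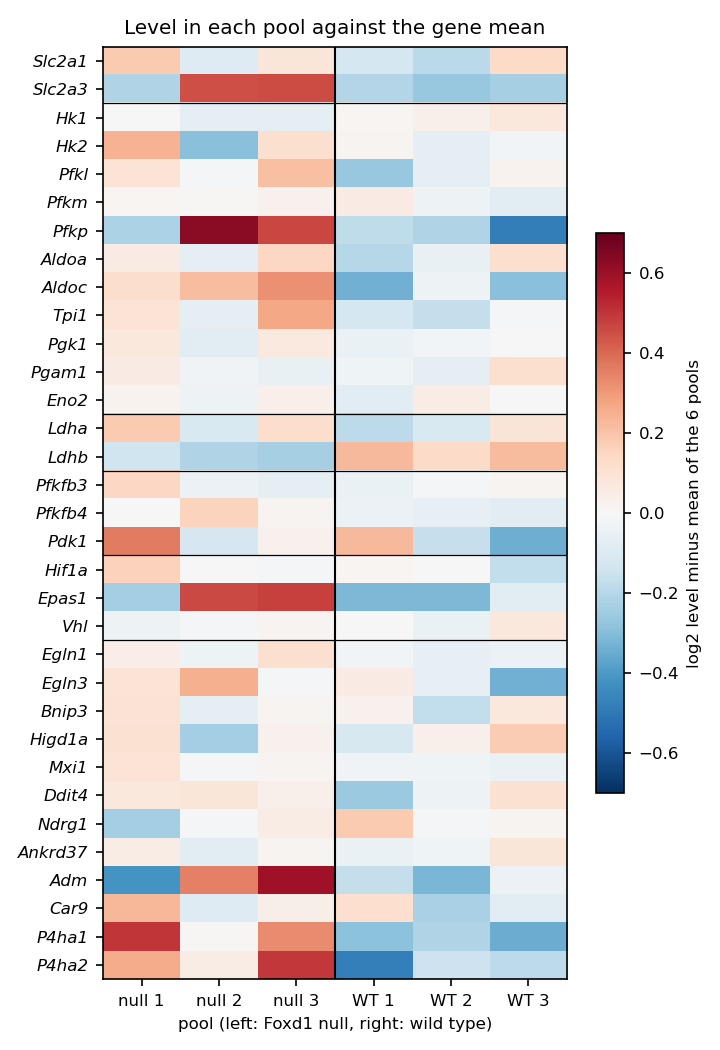
Log2 level of each of the 33 genes in each pool minus the gene's mean over the 6 pools (colour), with null-labelled pools on the left, wild type pools on the right and lines between functional groups. P4ha1, P4ha2 and Aldoc are high across the null-labelled pools, Ldhb is low across them, and Slc2a3, Pfkp, Epas1 and Adm are high only in null-labelled pools 2 and 3.

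The HIF alpha subunits and Vhl did not pass. Hif1a, the widespread alpha subunit, read 10.29, 10.13 and 10.13 in the null-labelled pools and 10.15, 10.13 and 9.96 in the wild type pools (difference 0.10, 95% interval -0.09 to 0.29). Vhl stood at 8.03, 8.06 and 8.09 in the null-labelled pools and 8.06, 8.02 and 8.14 in the wild type pools, a difference of -0.02 (95% interval -0.18 to 0.14). The hydroxylase Egln1, the main oxygen sensor, differed by 0.08 (SE 0.07) and its HIF-induced relative Egln3 by 0.22 (SE 0.11). These levels are of RNA, while oxygen controls the alpha subunits mainly through protein stability, which the arrays do not measure.

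Epas1, Slc2a3, Pfkp and Adm set null-labelled pools 2 and 3 apart from all other pools. Epas1, the HIF alpha subunit of endothelium, stroma and the sympathoadrenal lineage, stood at 8.12, 8.81 and 8.83 in null-labelled pools 1, 2 and 3, against 8.04, 8.04 and 8.28 in the wild type pools. Slc2a3, the high-affinity glucose transporter known from neurons, read 6.63, 7.29 and 7.30 in the null-labelled pools, against 6.64, 6.58 and 6.61 in the wild type pools. Null-labelled pool 1 lay within the wild type range for both.

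Pfkp, the platelet-type phosphofructokinase, which is also made in brain, gave 7.37, 8.22 and 8.06 in the null-labelled pools, against 7.42, 7.38 and 7.11 in the wild type pools. Adm, the vasodilator peptide adrenomedullin, gave 6.35, 7.12 and 7.36 in the null-labelled pools, against 6.60, 6.45 and 6.72 in the wild type pools. In null-labelled pool 1 Adm was lower than in any wild type pool. Over all pools none of the 4 passed: the differences were 0.47 for Epas1 (SE 0.17, adjusted p = 0.247), 0.47 for Slc2a3 (SE 0.16, adjusted p = 0.206), 0.58 for Pfkp (SE 0.19, adjusted p = 0.191) and 0.35 for Adm (SE 0.21, adjusted p = 0.529).

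These 4 genes are grouped because null-labelled pool 1 stood apart from the other 2, so their values without it describe the same pattern and are no separate support for it. The differences were then 0.70 for Epas1 (adjusted p = 0.00461), 0.69 for Slc2a3 (adjusted p = 0.00188), 0.84 for Pfkp (adjusted p = 0.00394) and 0.65 for Adm (adjusted p = 0.0129). In that fit without null-labelled pool 1, 6 of the 33 genes were called, these 4 with Aldoc and Ldhb, while 3.73% of all genes were. The count includes the 4 genes grouped for this pattern, so it is no separate support either. Pam, an enzyme that amidates peptide hormones such as adrenomedullin, rose by 0.79 over all pools (SE 0.16, adjusted p = 0.0355). It stood at 8.41, 9.01 and 9.14 in the null-labelled pools and 8.04, 8.12 and 8.04 in the wild type pools, so pool 1 was again the lowest of the null-labelled pools. Pam passed in 1 of the 6 fits without a pool, the one without null-labelled pool 1.

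The same 2 pools were high in markers of sympathetic neurons and chromaffin cells. Of 11 measured markers 1 passed, the RNA-binding protein Elavl4 (rose by 0.62, SE 0.13, adjusted p = 0.0383), and all 11 differences were above 0. Their summed linear level was 1692, 7068 and 5103 in null-labelled pools 1, 2 and 3, against 1417, 1810 and 2044 in the wild type pools. By this sum null-labelled pool 1 lay within the wild type range, as it did for Epas1, Slc2a3 and Pfkp. Elavl4 differed from the sum, with 7.28, 7.85 and 7.60 in the null-labelled pools and 6.91, 7.02 and 6.95 in the wild type pools. Without overlap 2 of the 11 markers were higher, Elavl4 and Elavl3, where 11.5% of all genes were. Endothelial markers, of which 4 of 10 rose, summed to 4436, 5024 and 5107 in the null-labelled pools and 3565 to 3812 in the wild type pools. Macrophage markers, of which 4 of 10 rose, summed to 1917, 2132 and 2420 in the null-labelled pools and 1499 to 1635 in the wild type pools. Among all genes 1.64% were called higher. All 10 differences were above 0 in either list. Without overlap 9 endothelial and 7 macrophage markers were higher, where 11.5% of all genes were. For both sums null-labelled pool 1 was above every wild type pool. No marker is at 0 on an array, and the part of these cells in the levels of Epas1, Slc2a3, Pfkp, Adm, Pam, Lox and the collagen hydroxylases was not tested.

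**Figure D5:**
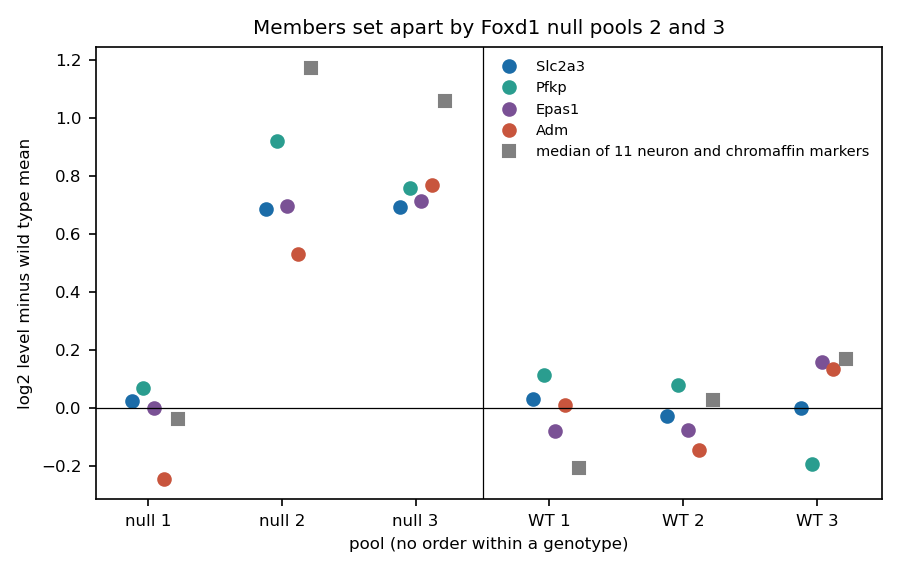
Log2 level of Slc2a3, Pfkp, Epas1 and Adm in each pool minus the gene's wild type mean (vertical axis), with the median of 11 neuron and chromaffin markers as grey squares; null-labelled pools are left of the line and wild type pools right. The 4 genes and the marker median (1.17 and 1.06) are high in null-labelled pools 2 and 3, and the marker median is -0.04 in null-labelled pool 1.

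Other tissues differed between pools in other ways. Of 12 skeletal muscle markers 1 rose (Tnnt3, a muscle troponin), where 1.64% of all genes were called higher. Differences above 0 were seen in 11 of the 12, and the list median was 0.96. At an unadjusted p under 0.05 by limma, 7 were higher and 0 lower, where 8.68% of all genes were higher. The muscle markers summed to 7753, 6306 and 3875 in the null-labelled pools and 1658, 3392 and 4584 in the wild type pools. Erythroid markers, of which none of 10 passed by limma (2 at an unadjusted p under 0.05, 0 by the plain test), summed to 10738, 7075 and 9001 in the null-labelled pools and 6843, 7746 and 11188 in the wild type pools. Hepatocyte markers, of which 0 of 5 passed by limma, by the plain test or unadjusted, summed to 3809 in null-labelled pool 3 and to 372 to 747 in the other pools of both genotypes. Of 7 markers of cycling cells 0 passed by limma or the plain test, and 0 had a difference above 0. At an unadjusted p under 0.05 by limma 3 were lower, where 5.42% of all genes were. Without overlap 3 were lower (42.9%), where 8.04% of all genes were. The cycling markers summed to 7445 to 8527 in the null-labelled pools and 8620 to 9012 in the wild type pools. The part of these tissues in the levels of the glycolysis and hypoxia genes, P4ha1 included, was not tested.

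The remaining hypoxia targets did not pass by limma, by the plain test or unadjusted. Mxi1, a repressor of the Myc network, read 7.81, 7.70 and 7.73 in the null-labelled pools and 7.69, 7.68 and 7.66 in the wild type pools, without overlap but with a difference of only 0.07 (SE 0.07). Bnip3, which marks mitochondria for removal, differed by 0.04 (SE 0.09), Higd1a, a mitochondrial inner membrane protein, by -0.07 (SE 0.11) and Ddit4, an inhibitor of mTORC1 signalling, by 0.13 (SE 0.10). Car9, the membrane carbonic anhydrase used as a marker of hypoxic tissue, differed by 0.12 (SE 0.11), Ankrd37 by -0.01 (SE 0.08) and Ndrg1 by -0.13 (SE 0.10). All but Mxi1 of these 7 had overlapping groups, and the signs of Bnip3, Higd1a and Ankrd37 turned under some settings. Higd1a had 2 rows that disagreed, with -0.07 on the row used and 0.18 on the other.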

How the data were processed

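RNA of 6 pools of embryonic kidneys was amplified with a NuGEN kit, labelled with biotin and hybridised to arrays, per the labels' protocols. The deposited log2 values were used as given; no label names the program that summarised and normalised them. The authors also deposited a table with 488 rows that gives a signed fold, used as a score, p-values of unstated tests and group medians on a natural log scale; only the fold and p-value were printed.

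Of 35556 rows, 21789 carried 1 symbol in the platform annotation, 1621 several and 12146 none. The row with the highest mean over the 6 pools was kept for each of 19938 genes, 999 of which had several rows. The test was limma's (version 3.58.1, under R 4.3.3), two-sided, with genotype as the only term over 6 pools. No filter was applied and 0 values were missing. It was tried on simulated data. The p-values measure the spread between pools that share litters. Isozyme ratios were tested by exact permutation. Linear sums of marker lists are of 2 raised to the log2 value, so they follow the rows with the highest values. Tables and plots used Python 3.11.15 and pandas 2.3.3.

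The members and lists were chosen with earlier results of these data known. All 33 measured members are named, with values per pool for those called, those with an unadjusted p under 0.05, those without overlap, and Hif1a, Epas1, Vhl, Slc2a1, Pgk1, Ldha and Pdk1; Adm was added after its values were seen. From the other lists, called genes (up to 4 a list) and Vegfa, Gapdh, Pkm and Bnip3l were named, and up to 2 called genes a marker list. Promoter sequences are from RefSeq (GRCm38.p6). Alternatives were quantile normalization, median centring, an intensity trend with and without robust variances, array weights, leaving out the lowest 25 percent of genes, the mean of a gene's rows, all rows, a replicate block, leaving out each pool, and a plain two-sample test.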

Additional observations from a re-analysis of the deposited data

How the results depend on the processing

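The counts of calls depend on the setting, and the few calls among the glycolysis and hypoxia genes with them. Against 326 genes higher and 153 lower, a fit over all rows of the array called 61 and 29 of these genes and a plain two-sample test 1 and 1; leaving out a pool gave 127 to 572 higher and 64 to 171 lower. Of the 33 genes, 1 rose and 1 fell. With an intensity trend, with the trend and robust variances, or without the lowest 25 percent of genes 3 rose, adding Aldoc and P4ha2. With the mean of all rows of a gene 2 rose, adding Aldoc, and with all rows of the array or the plain test 0 rose and 0 fell. Leaving out a pool gave 0 to 5 higher and 0 to 1 lower. Replicate numbers did not clearly pair the pools: same-numbered pools had correlations of deviations of 0.125, 0.0677 and 0.0533, although each pool correlated best with its own number. With the replicate block 2 rose, adding Aldoc, and 1 fell, while Slc16a3 (adjusted p = 0.052) and the muscle marker Tnnt3 (0.0539) no longer passed. The medians stayed above 0 in all settings run, at 0.053 to 0.171 for the glycolysis genes and 0.0584 to 0.118 for the other hypoxia targets.

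Differences turned sign in 21 of 527 comparisons of a gene with its main value, in 10 of the 33 genes, none called in either fit and none larger than 0.0711. These were Hk1 (0.0036) and Higd1a (0.0563) with the mean of rows, Pfkm (-6.53e-05), Eno2 (-0.0207) and Pfkfb3 (-0.0075) with quantile normalization, Eno2 (-0.0159) and Pfkfb3 (-0.00997) with median centring, and Pgam1 (0.0045) and Ankrd37 (0.0033) with array weights. Leaving out a pool gave -0.0711 to 0.198 for Hk2, -0.0476 to 0.0395 for Pgam1, -0.0184 to 0.0443 for Eno2, -0.0458 to 0.062 for Pfkfb3, -0.0446 to 0.0142 for Vhl, -0.0323 to 0.0902 for Bnip3, -0.141 to 0.0322 for Higd1a, and -0.0331 to 0.0354 for Ankrd37. Outside the 33 genes, Bnip3l also turned sign, with -0.0187 to 0.121. The causes were not tested, except that leaving out pools or testing all rows changes how much is tested. In 25 of the 33 genes no setting gave a call.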

Other observations

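Genes of lactate transport, pyruvate use and muscle glycolysis that missed the threshold are given here, chosen after their values were seen. Slc16a1, the monocarboxylate transporter of most cells, stood at 7.28, 7.26 and 7.44 in the null-labelled pools and 7.49, 7.50 and 7.64 in the wild type pools (difference -0.22, SE 0.08, adjusted p = 0.255). Slc16a7, another monocarboxylate transporter, was on the other side, with 7.31, 7.34 and 7.23 in the null-labelled pools and 7.22, 7.05 and 6.79 in the wild type pools (difference 0.27, SE 0.11, adjusted p = 0.284). Pdk2, a kinase of pyruvate dehydrogenase, read 7.32, 7.40 and 7.41 in the null-labelled pools and 7.84, 7.68 and 7.62 in the wild type pools (difference -0.33, SE 0.08, adjusted p = 0.0732). Slc2a2, the glucose transporter of the proximal tubule's basal side, differed by -0.25 (SE 0.08, adjusted p = 0.199). Eno3, the muscle enolase, gave 8.92, 8.60 and 8.81 in the null-labelled pools and 8.44, 8.46 and 8.50 in the wild type pools (difference 0.31, SE 0.09, adjusted p = 0.137). Pgam2, the muscle phosphoglycerate mutase, gave 7.60, 7.53 and 7.23 in the null-labelled pools and 7.22, 7.16 and 7.20 in the wild type pools (difference 0.26, SE 0.10, adjusted p = 0.267). Groups did not overlap for these 6 genes, as for 12 of the 40 measured genes of the glucose use list (30%) and 19.5% of all genes.

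Gapdh, which oxidises glyceraldehyde phosphate, was found only on 25 rows that carry several symbols, so it was not among the genes tested. On these rows the difference ran from -0.12 to -0.06 with a median of -0.08, and none was called by limma over all rows (lowest unadjusted p = 0.144).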
